A study of Mus musculus with 16 samples.

Results

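The Hist1 cluster of the mouse is the main array of replication-dependent histone genes, and the Hist1h genes were followed here through spermatogenesis by promoter accessibility. A gene belonged to the set when its symbol in the authors' annotation started with Hist1h, with joint names split at commas. This gave 54 of the 21380 genes in the annotation, all on chromosome 13 of build mm10 with transcription start sites (TSS) between 21716143 and 23934462. They are 5 genes for the linker histone H1, 12 for H2A, 14 for H2B, 9 for H3 and 11 for H4. The other 3 are the testis variants Hist1h1t (H1t), Hist1h2aa (TH2A) and Hist1h2ba (TH2B). Gaps of more than 100 kb between neighbouring TSS split the cluster into 4 blocks of 18, 5, 29 and 2 genes, the last being the TH2A and TH2B pair.

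Open chromatin was measured by ATAC-seq, in which the Tn5 transposase inserts adapters into accessible DNA. Cells of 4 stages were compared. Spermatogonia selected for Thy1 (Thy1 below), a surface marker of the less differentiated cells, and for c-Kit (cKit below), a receptor of differentiating cells, were taken from testes 7 days after birth. The adult cells were pachytene spermatocytes (PS), in meiotic prophase, and haploid round spermatids (RS). Each came from testes of wild-type C57BL/6 mice and of mice labelled Scml2-KO, of the same strain, a knockout of a Polycomb-related germline protein. With 2 libraries in each of the 8 groups there were 16 libraries. Spermatogonia and adult cells also differ in the age of the animals, so stage and age cannot be told apart. The input also went by stage, at about 500000 cells a reaction for spermatogonia, 250000 for PS and 1000000 for RS, so stage and input cannot be told apart either. Whether replicates are separate animals is not stated in the labels, so a p-value here reflects only how these libraries vary, which may be technical.

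Replication-dependent histone genes are expressed in S phase, when new chromatin needs histones. They have no introns, and their mRNAs end in a stem-loop in place of a poly(A) tail. Spermatogonia divide by mitosis, pachytene spermatocytes have passed the last S phase of the lineage, and spermatids later replace most histones by protamines. TH2A, TH2B and H1t are testis variants that are known to build up in spermatocytes. Many H2A and H2B genes lie head to head and share a promoter region.

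The promoters below were chosen because the results turn on them. They are the shared TH2A and TH2B promoter, read toward Hist1h2ba, and that of Hist1h1t. Next come 3 promoters that had a peak in all 8 spermatogonial libraries and in at most 1 adult library (Hist1h1e, Hist1h2ae and Hist1h4f), and 2 that had a peak in all 16 libraries (Hist1h2an and Hist1h4a). The last, Hist1h2bq, had no peak in any library. Each sequence is from RefSeq on GRCm38.p6, runs 5′ to 3′ toward the gene and ends 1 base before the RefSeq start. It covers 250 bases, or fewer where a divergent partner starts closer. Capitals mark 5 motifs known from histone promoters, on either strand: the CCAAT box, the TATA box (searched as TATAAA), the octamer ATGCAAAT, the H1 box AAACACA and the cyclic AMP response element TGACGTCA.
Hist1h2ba, chr13:23934157-23934406, minus strand: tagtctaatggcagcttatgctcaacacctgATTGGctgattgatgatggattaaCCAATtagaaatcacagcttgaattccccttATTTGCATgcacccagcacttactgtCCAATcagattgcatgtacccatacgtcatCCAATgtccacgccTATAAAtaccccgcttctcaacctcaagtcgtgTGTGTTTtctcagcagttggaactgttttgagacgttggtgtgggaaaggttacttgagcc
Hist1h1t, chr13:23695561-23695810, plus strand: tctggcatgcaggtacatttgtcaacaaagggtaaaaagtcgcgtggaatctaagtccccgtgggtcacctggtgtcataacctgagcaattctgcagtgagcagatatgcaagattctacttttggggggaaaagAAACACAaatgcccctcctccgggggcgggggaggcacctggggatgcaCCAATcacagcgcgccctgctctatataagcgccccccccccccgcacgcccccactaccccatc
Hist1h1e, chr13:23622559-23622808, minus strand: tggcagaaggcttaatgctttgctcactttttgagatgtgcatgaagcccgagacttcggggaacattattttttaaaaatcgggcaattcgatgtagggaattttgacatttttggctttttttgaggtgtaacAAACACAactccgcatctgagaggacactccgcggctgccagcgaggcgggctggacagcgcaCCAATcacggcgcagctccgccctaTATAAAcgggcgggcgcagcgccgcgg
Hist1h2ae, chr13:23571221-23571399, minus strand: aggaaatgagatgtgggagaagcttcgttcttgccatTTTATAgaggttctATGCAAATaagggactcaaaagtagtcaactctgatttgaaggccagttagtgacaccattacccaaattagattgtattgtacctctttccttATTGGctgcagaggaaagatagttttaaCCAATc
Hist1h4f, chr13:23551669-23551918, minus strand: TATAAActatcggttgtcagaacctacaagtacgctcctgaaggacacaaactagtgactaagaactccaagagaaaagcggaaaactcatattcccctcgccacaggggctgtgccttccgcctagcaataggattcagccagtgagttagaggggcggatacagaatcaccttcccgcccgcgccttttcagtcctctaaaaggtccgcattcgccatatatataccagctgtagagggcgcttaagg
Hist1h2an, chr13:21787249-21787487, minus strand: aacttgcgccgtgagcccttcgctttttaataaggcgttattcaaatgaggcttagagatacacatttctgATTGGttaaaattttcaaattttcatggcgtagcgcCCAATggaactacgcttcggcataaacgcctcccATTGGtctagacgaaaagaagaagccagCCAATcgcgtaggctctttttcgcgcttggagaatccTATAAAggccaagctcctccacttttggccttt
Hist1h4a, chr13:23761250-23761499, minus strand: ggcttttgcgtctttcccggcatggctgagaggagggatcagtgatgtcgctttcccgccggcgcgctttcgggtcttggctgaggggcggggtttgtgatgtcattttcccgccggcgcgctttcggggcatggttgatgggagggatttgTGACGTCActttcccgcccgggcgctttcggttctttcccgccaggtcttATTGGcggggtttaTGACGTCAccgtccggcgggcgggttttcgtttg
Hist1h2bq, chr13:21810200-21810366, minus strand: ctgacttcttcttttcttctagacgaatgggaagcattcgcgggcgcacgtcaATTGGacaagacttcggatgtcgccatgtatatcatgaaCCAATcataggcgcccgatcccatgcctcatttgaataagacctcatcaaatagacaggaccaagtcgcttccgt

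These motifs were counted in windows from 250 bases before to 50 bases after the RefSeq start. Of the 54 genes, 51 matched a window. CCAAT, the box bound by NF-Y, was in 43 of the 51 windows (84.3%), against 37.4% of 32851 RefSeq windows of the same length. It was in every H1, H2A, H2B and H3 window that matched and in 3 of 11 H4 windows. TATAAA stood in 31 windows (60.8%, against 13.6% of all). The octamer ATGCAAAT, known from H2B promoters, was in 10 windows (19.6%, against 1.74%), 4 of them H2B, 4 H2A and the other two of testis variants. Because divergent pairs overlap, 1 match of any motif can count for both partners. The H1 box of Hist1h2ba and Hist1h2aa is 1 such match, as is the TGACGTCA of Hist1h2ag and Hist1h2bj. The H1 box AAACACA was in 4 of 5 H1 windows and in all 3 testis variant windows, against 7.18% of all windows. In the Hist1h2ba promoter CCAAT lay at -219, -195, -138 and -108 (bases from the start), the octamer at -164 and the H1 box at -61. Hist1h1t and Hist1h1e both had the H1 box close to the same place (-114 and -115) and 1 CCAAT (-65 and -52). TGACGTCA was in 4 windows, and Hist1h4a had it at -98 and -34. Of the 10 genes called below, 9 had CCAAT, as had 12 of the 13 matched genes with a peak in all 16 libraries. A match is a description of letters, not a bound site.

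A gene counted as having a promoter peak in a library where at least 1 peak overlapped 1 kb on either side of its TSS by at least 1 bp. In the 8 spermatogonial libraries 36 to 50 of the 54 genes had one (median 49.5), against 24 to 43 (median 30) in the 8 adult libraries. For Thy1 the 2 wild-type libraries gave 50 and 49 genes, the Scml2-KO libraries 50 and 47. For cKit they gave 50 and 45, and 50 and 36. PS stood lowest, at 29 and 24 for wild type, then 34 and 26 for Scml2-KO. RS reached 39 and 31, then 43 and 29. The classes overlapped through 1 spermatogonial library, cKit Scml2-KO replicate 2, which had the shortest list of all (17813 peaks).

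Lists held 17813 to 164060 peaks, and 10869 to 15868 of the 21380 genes had a promoter peak in a library, so list length moves with presence. By class, this was 10869 to 15868 genes in spermatogonia and 11759 to 14799 in adult cells. With the strongest 17813 peaks of each library, Hist1h genes with a promoter peak numbered 36 to 45 in spermatogonia (median 43.5) and 13 to 30 in adult cells (median 22.5), with no overlap. Over all genes the classes overlapped, at 9933 to 11306 in spermatogonia and 9271 to 11101 in adult cells. Marker promoters of other cells moved with the classes too. Of 9 Sertoli cell markers, 3 to 9 had a peak in spermatogonial and 0 to 5 in adult libraries, and of 6 peritubular markers 2 to 6 and 0 to 3. Endothelial markers (4) had 2 to 3 against 0 to 1, immune markers (5) 0 to 3 against 0 to 1 and Leydig markers (5) 0 to 3 against 0 to 1. Pecam1, Ptprc, Emr1, Cyp11a1 and Hsd3b1 had none in any library. Called higher in spermatogonia were 3 of 7 tested Sertoli markers (Clu, Rhox8 and Cst12) and 2 of 6 peritubular markers (Acta2 and Lmod1). So were 3 of 3 endothelial (Cdh5, Kdr and Tek), 0 of 2 immune and 1 of 3 Leydig markers (Nr5a1), against 24.8% of all tested genes. None of these markers was called higher in adult cells. The part of such cells in the Hist1h results was not tested. The labelled stages were told apart by their markers only in part. Spermatocyte genes stood at 0 to 3 of 8 in spermatogonia and 7 to 8 in adult cells, and spermatid genes at 0 to 1 and 6 to 8 of 8, but Prm3, Tnp1, Acr and Actl7a, spermatid genes, had peaks in all 4 PS libraries as in all 4 RS libraries. Of tested spermatocyte genes, 5 of 5 were called higher in adult cells (Spo11, Hormad1, Tex12, Piwil1 and 1700123I01Rik). So were 7 of 8 spermatid genes (Prm1, Prm2, Prm3, Tnp1, Tnp2, Acr and Actl7a). Markers of undifferentiated spermatogonia stood at 2 to 8 of 8 in spermatogonia and 3 to 7 in adult cells, and those of differentiating spermatogonia at 1 to 5 and 2 to 5 of 5, with Dmrtb1 called higher in adult cells. Of the genes used for the sort, Thy1 had a promoter peak in 4 Thy1, 0 cKit, 1 PS and 1 RS libraries, and Kit in all 16. In bulk samples, fewer cells with an open promoter and a weaker signal per cell cannot be told apart.

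**Figure D1:**
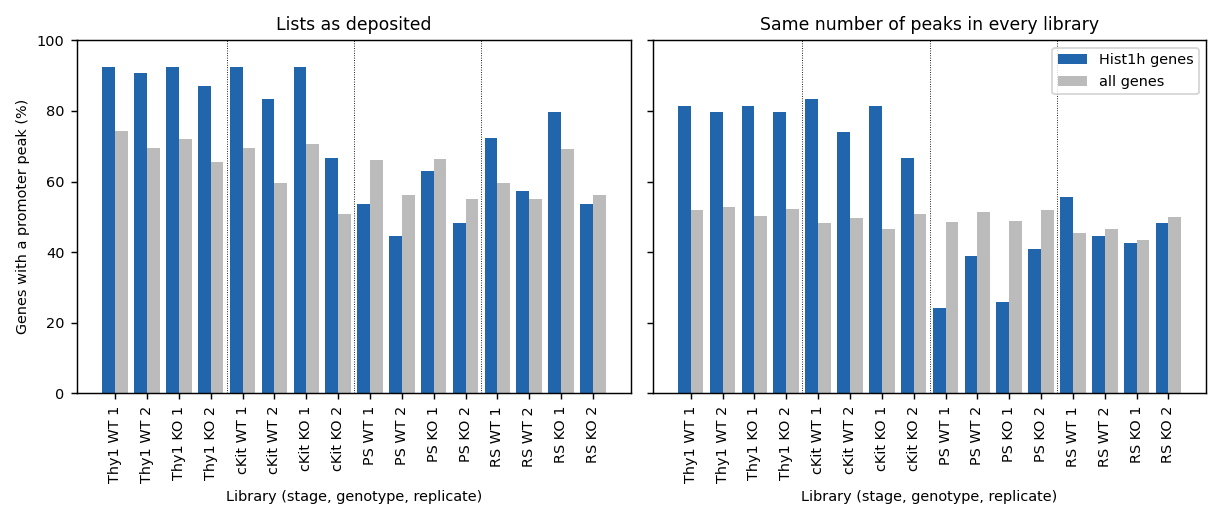
Percentage of the 54 Hist1h genes (blue) and of all 21380 genes (grey) with a promoter peak in each of the 16 libraries, with the lists as deposited on the left and the strongest 17813 peaks of each library on the right. The Hist1h bars run from 36 to 50 genes in spermatogonia and from 24 to 43 in adult cells on the left, and from 36 to 45 against 13 to 30 on the right.

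Between spermatogonia and adult germ cells, 10 Hist1h genes were called as having promoter peaks in fewer adult libraries, and none was called in the other direction. Of the 10, 5 were present in all 8 spermatogonial libraries and 0 of 8 adult libraries: Hist1h1e (H1), Hist1h2ae and Hist1h2af (H2A), and Hist1h2be and Hist1h2bg (H2B). Hist1h4f (H4) and Hist1h3e (H3) had 8 against 1, Hist1h3d (H3) 7 against 0, Hist1h4d (H4) 8 against 2 and Hist1h1d (H1) 7 against 1. Core histones form the nucleosome and H1 binds the linker DNA between nucleosomes, so the 10 genes hold every histone type, with 2 genes of each. By Fisher's exact test with Benjamini-Hochberg adjustment over 3914 genes, the adjusted p was 0.00356 for the 5 genes with 8 against 0, 0.00876 for Hist1h4f, Hist1h3e and Hist1h3d, 0.0246 for Hist1h4d and 0.0304 for Hist1h1d.

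Only genes with a peak in 5 to 11 libraries were tested, since others cannot reach a small p in this design. Among the 3914 such genes 33.2% were called, 24.8% higher in spermatogonia and 8.48% higher in adult cells. Of the Hist1h genes 17 could be tested, and 10 of these were called higher in spermatogonia and 0 higher in adult cells. A further 33 had a peak in more than 11 libraries and 4 in fewer than 5. Complete separation, 8 libraries against 0, held for 5 Hist1h genes and for 0.533% of all genes in that direction, and the reverse for 0 members and 0.267% of all genes. Without cKit Scml2-KO replicate 2, 13 members and 51.5% of the tested genes were called, the added members being Hist1h3h, Hist1h3i and Hist1h3b. Neighbours that share a peak are not separate observations. Hist1h2ae and Hist1h2bg, with starts 180 bp apart, had the same strongest peak in 8 of 8 libraries, and Hist1h2be and Hist1h1e shared a peak in 7 of 8.

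The authors' fold enrichment at these promoters, the summit pileup over the caller's background, was moderate where there was a peak. At Hist1h1e, a linker histone gene, the 8 spermatogonial libraries had a lowest fold of 4.72, a median of 14.3 and a highest of 22.9, and no adult library had a peak. Its neighbour Hist1h2be ran from 5.65 through a median of 14.3 to 22.9. In 5 of the 8 libraries both genes had the same strongest peak, so their values are not separate. In both Thy1 Scml2-KO libraries and replicate 1 of both cKit genotypes, its summit lay 845 to 1321 bp downstream of the Hist1h1e TSS. In Thy1 wild type replicate 1, where both had 22.9, it lay at -1472 bp from the Hist1h2be TSS and -8 bp from that of Hist1h1e. The Hist1h2ae and Hist1h2bg peak ran from 5.77 through 14.3 to 22.9. The library medians over all genes with a promoter peak ran from 7.87 to 18.7 in spermatogonia. Hist1h2af, an H2A gene, ran from 4.63 through 12.6 to 21.8. In 3 libraries its value, 20.8 to 21.8, was that of a peak shared with Hist1h3g, with the summit 1359 to 1362 bp from the Hist1h2af TSS, and in the other 5 it ran from 4.63 through 5.56 to 16.9. At Hist1h4f, an H4 gene, the spermatogonial values ran from 3.67 through 14.5 to 21.7, and the adult peak, in RS Scml2-KO replicate 1, had 4.54. Hist1h3e, an H3 gene, ran from 6.68 through 14.6 to 22.9, and the same RS library had its adult peak, at 3.41. This RS library had the longest list, 164060 peaks. Hist1h4d had 4.196 to 18.1 in spermatogonia (median 10.5) and peaks at 3.88 and 3.41 in replicate 1 of RS wild type and Scml2-KO. Hist1h3d ran from 6.36 through 10.1 to 17.5 over 7 libraries, and Hist1h1d from 9.25 through 11.7 to 19.3 over 7, with an adult peak of 5.54 in RS wild type replicate 1. Both lacked a peak in cKit Scml2-KO replicate 2. Where these genes had an adult peak, it stood in RS and in a replicate 1 library, with a fold of 3.41 to 5.54.

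In the cluster, 9 of the 10 called genes lay in 1 stretch, broken by 1 pair that was not called. The run from Hist1h4f to Hist1h1e, chromosome 13 from 23551643 to 23622558, holds 11 genes over 70.9 kb, and outside it 1 of 43 Hist1h genes was called (Hist1h2af). Only 17 Hist1h genes could be tested, and 33, most of them outside the run, had a peak in too many libraries. With lists of equal length further members were called higher in spermatogonia, all outside the run. They were Hist1h3h, Hist1h2ak, Hist1h2bn, Hist1h1b, Hist1h3i, Hist1h2ah, Hist1h2bk, Hist1h3c, Hist1h2bb, Hist1h2ab and Hist1h3b. The ends of this run and its 9 genes were picked by the calls themselves, so their counts by stage are a description. They had a peak in 36 of 36 gene and library combinations in Thy1, 34 of 36 in cKit, 0 of 36 in PS and 5 of 36 in RS. The other two genes of the run, the divergent pair Hist1h2bf and Hist1h2ad, lie in its middle and had their shared peak in every library. That peak had a fold of 6.82 to 24.5 in spermatogonia (median 16.4) and 3.897 to 17.7 in adult cells (median 10.4).

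**Figure D2:**
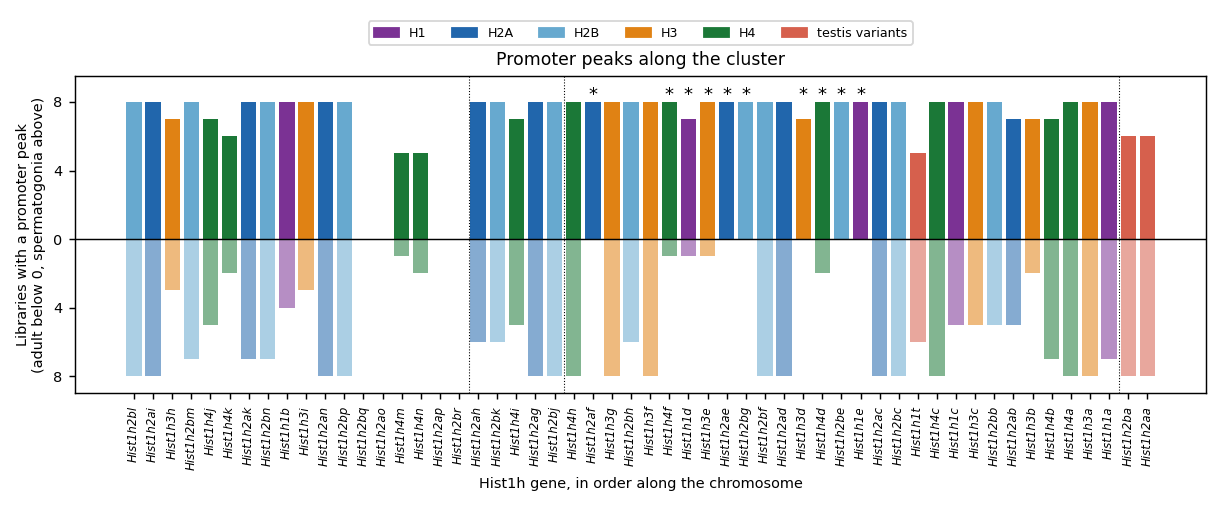
Number of libraries with a promoter peak for each Hist1h gene in order along the chromosome, with the 8 spermatogonial libraries above 0 and the 8 adult libraries below, coloured by histone type; dotted lines separate the 4 blocks and asterisks mark the 10 genes called. Of these, 9 stand in 1 stretch, in which Hist1h2bf and Hist1h2ad keep 8 adult libraries.

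In the whole set, 16 Hist1h genes had a promoter peak in all 16 libraries, against 39.1% of all genes. They were 5 H2A genes (Hist1h2ai, Hist1h2ac, Hist1h2ad, Hist1h2an and Hist1h2ag), their 5 divergent H2B partners (Hist1h2bl, Hist1h2bc, Hist1h2bf, Hist1h2bp and Hist1h2bj), Hist1h3g, Hist1h3f, Hist1h3a, Hist1h4h, Hist1h4c and Hist1h4a. No H1 gene was among them. Each of the 5 pairs shared its strongest peak in 16 of 16 libraries. In all 8 spermatogonial libraries 36 genes had a peak (49.3% of all genes did), and in all 8 adult libraries 18 did (44.4% of all genes).

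The strength of these lasting peaks differed between pairs. The Hist1h2ag and Hist1h2bj peak was the strongest of its types, judged by the median over all libraries (22.4). Its fold was 31.4 and 28.4 for Thy1 wild type, then 27.5 and 19.1 for Scml2-KO. The cKit values were 31.5 and 23.6, then 33.6 and 8.39. For PS they were 21.2 and 14.1, then 25.996 and 11.95, and for RS 14.4 and 11.3, then 26.9 and 16.02. The classes overlapped, and cKit Scml2-KO replicate 2 was the lowest of all. The weakest lasting pair, Hist1h2ai and Hist1h2bl, ran from 7.87 to 28.9 in spermatogonia (median 21.8) and from 5.03 to 10.2 in adult cells (median 6.24), so spermatogonial libraries other than cKit Scml2-KO replicate 2 all stood above the adult range. Among the H3 genes, Hist1h3g was lowest over all libraries, with 7.87 to 34.4 in spermatogonia (median 21.1) and 3.76 to 13.6 in adult cells (median 6.91). Hist1h3a was highest, with 9.44 to 28.3 (median 19.4) and 7.06 to 28.0 (median 15.8). Of the H4 genes Hist1h4h was lowest, with 5.24 to 22.9 (median 14.3) and 5.03 to 14.8 (median 6.86). Hist1h4a was highest, with 9.44 to 28.3 (median 18.8) and 7.06 to 28.0 (median 15.8), and it shared its strongest peak with Hist1h3a in 14 of 16 libraries.

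Each fold was set against the median over all genes with a promoter peak in the same library, since fold scales differ between lists. Over the 26 Hist1h genes with a peak in at least 6 libraries of both classes, a comparison added after the data were seen, every spermatogonial ratio lay above every adult ratio for 11 genes, against 7.91% of the 10839 genes that met the same limit. These were the pairs Hist1h2bl and Hist1h2ai, Hist1h2ak and Hist1h2bn, Hist1h2ah and Hist1h2bk, and Hist1h2ac and Hist1h2bc, together with Hist1h2bm, Hist1h3g and Hist1h2bh. Hist1h2bh had the same strongest peak as Hist1h3f in the 14 libraries where both had one, yet the Hist1h3f classes overlapped. The highest adult ratio of Hist1h3f, 1.056, was in PS Scml2-KO replicate 2, where the peak lay just outside the Hist1h2bh window. The separation of Hist1h2bh thus rests on the edge of its window. The Hist1h2bm ratio, the highest in spermatogonia, had a median of 1.93 there and 0.714 in adult cells. For 2 genes, Hist1h2aa and Hist1h2ba, every adult ratio lay above every spermatogonial one (4.27% of all genes), and for 13 the classes overlapped. Hist1h2an and Hist1h2bp (medians 1.74 and 1.503), Hist1h2ag and Hist1h2bj (1.85 and 1.36) and the neighbours Hist1h3a (1.39 and 1.23) and Hist1h4a (1.32 and 1.23) stayed above 1 in the median of both classes. Fold enrichment is the caller's value, and its scale differs between lists, so these comparisons are descriptions and no p is given.

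**Figure D3:**
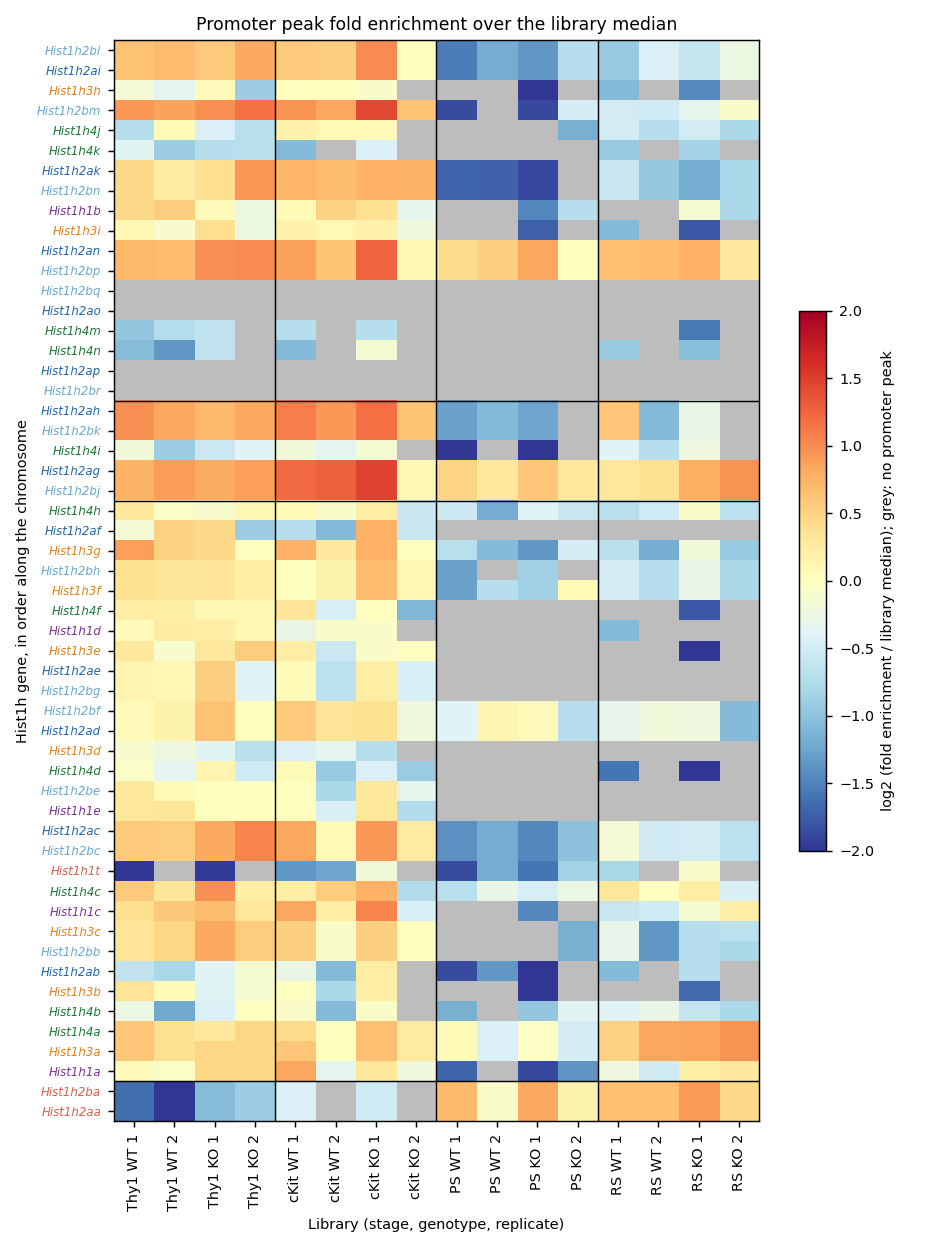
Fold enrichment of the strongest promoter peak over the library median, on a log2 colour scale, for 54 Hist1h genes (rows, in chromosome order, names coloured by type as in the plot of libraries by gene) in 16 libraries (columns); grey is no promoter peak. The stretch from Hist1h4f to Hist1h1e is grey in PS apart from Hist1h2bf and Hist1h2ad, and the bottom 2 rows, TH2B and TH2A, turn from below to about or above the median.

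By histone type, the H2A and H2B genes had the strongest promoter peaks in spermatogonia. Their median ratio to the library median was 1.48 for H2A (1.07 to 1.80 over 8 libraries) and 1.497 for H2B (1.07 to 1.80), above H1 (1.12, from 0.767 to 1.25), H3 (1.083, from 1.00 to 1.26) and H4 (0.870, from 0.600 to 1.04). H4 was lowest or tied for lowest in each of the 8 spermatogonial libraries, and H2A or H2B was highest in each. In adult cells the ratios were 0.667 for H1 (7 libraries, 0.310 to 1.16), 0.674 for H2A, 0.621 for H2B, 0.607 for H3 and 0.718 for H4, and no type led in all libraries. The H2A, H2B and H3 ranges did not overlap between the classes, whereas the H1 and H4 ranges did. Most H2A and H2B genes with a peak form divergent pairs with the same strongest peak, so the H2A and H2B values are not separate. With lists of equal length or a 500 bp window the spermatogonial H1 median stood below 1, at 0.888 and 0.945, and with equal lists that of H3 at 0.935.

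The same types differed in presence. In PS, H1 genes had a peak in 6 of 20 gene and library combinations, H4 in 18 of 44, H3 in 16 of 36, H2B in 32 of 56 and H2A in 29 of 48. In cKit these were 19 of 20, 35 of 44, 33 of 36, 48 of 56 and 39 of 48. H2B genes had 12 of 14 in each of the 8 spermatogonial libraries. RS stood at 11 of 20 for H1, 31 of 44 for H4, 22 of 36 for H3, 39 of 56 for H2B and 29 of 48 for H2A. The H1 genes thus had the lowest share in PS, with 0 of 5 in PS wild type replicate 2.

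**Figure D4:**
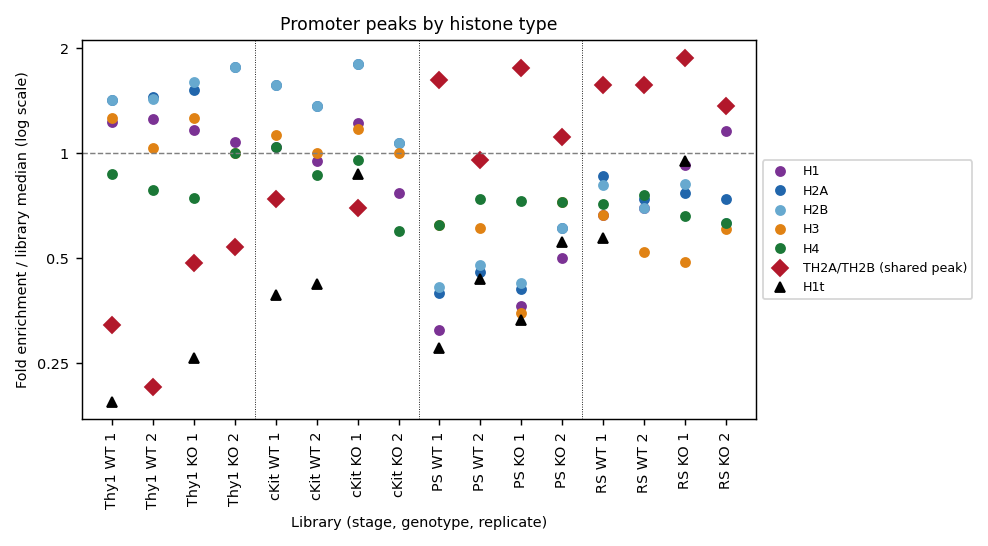
Median fold enrichment of promoter peaks over the library median, by histone type and library, on a log scale, with the shared TH2A and TH2B peak (diamonds) and H1t (triangles). In spermatogonia H2A and H2B lie between 1.07 and 1.80 and TH2A/TH2B at or below 0.739, and in adult cells TH2A/TH2B lie between 0.957 and 1.88.

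The promoter peak of the testis variants TH2A and TH2B was stronger in adult cells than in spermatogonia. Their 2 genes lie head to head, 306 bp apart (TSS at 23934462 and 23934156), and shared 1 peak in each of the 14 libraries that had one. Its fold was 6.03 and 3.27 for Thy1 wild type, then 7.64 and 5.56 for Scml2-KO. In cKit only replicate 1 had the peak, at 10.1 for wild type and 8.52 for Scml2-KO. For PS the values were 24.3 and 11.1, then 30.2 and 10.9, and for RS 18.3 and 13.5, then 29.1 and 11.3. Every adult value lay above every spermatogonial value. Over the library median the ratio was 0.511 (0.214 to 0.739, 6 libraries) in spermatogonia and 1.57 (0.957 to 1.88, 8 libraries) in adult cells, while the median ratio of the H1 and core histone members was 1.18 and 0.649.

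Within single libraries, the TH2A and TH2B peak was set beside those of the H1 and core histone members, leaving out H1t. In 3 Thy1 libraries it was below all 47 of them that had a peak. In PS wild type replicate 1 it was above all 26 and in RS Scml2-KO replicate 1 above all 40. In RS wild type replicate 1 it was above 34 of 36 and below none, and in PS wild type replicate 2, the lowest adult standing, above 15 of 21. The peak was also wider in adult cells, with a median length of 1514 bp (841 to 2095) against 438 bp (312 to 560). In presence the pair had 6 spermatogonial and 8 adult libraries, too many in all to be tested. With the strongest 17813 peaks of each library it had 1 against 8 and was called higher in adult cells, where 59.2% of tested genes were called in either direction.

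Hist1h1t, the testis linker histone (TSS at 23695811), had weak promoter peaks in 5 of 8 spermatogonial and 6 of 8 adult libraries, which was no call (adjusted p = 1, Fisher's exact test). Its fold was 3.62 in Thy1 wild type replicate 1 and 4.08 in Thy1 Scml2-KO replicate 1, with no peak in their replicates 2. For cKit it was 5.34 and 4.11 for wild type, and 10.7 for Scml2-KO replicate 1. PS libraries gave 4.13 and 5.03, then 5.72 and 5.43. In RS replicate 1 of each genotype had a peak, at 6.64 and 14.8. The classes overlapped. The spermatogonial summits lay 301 to 431 bp downstream of the TSS, while 3 of the 6 adult summits lay 502 to 543 bp upstream and the others 83 to 428 bp downstream. In the core window from 250 bp before to 50 bp after the TSS, chosen after the data were seen, Hist1h1t had a peak in 0 of 8 spermatogonial and 5 of 8 adult libraries, just short of a call (adjusted p = 0.0501, Fisher's exact test).

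Summits of several H1 genes lay far downstream in spermatogonia. There the summit of the strongest promoter peak of H1 genes lay at a median of 949 bp downstream of the TSS over 39 gene and library combinations. In adult cells the H1 median was 56 bp, over 17. The spermatogonial median was -101 bp for H2A, -146.5 bp for H2B, -64 bp for H3 and -56 bp for H4. Hist1h1b (1089.5 bp in the median), Hist1h1d (1160 bp) and Hist1h1c (955.5 bp) carried the H1 position, Hist1h1e stood at 432 bp, and Hist1h1a at -44 bp. In adult cells Hist1h1b stayed at 1070 bp, while Hist1h1c stood at 56 bp and Hist1h1a at -10 bp. Hist1h1d had 1 adult peak, at 38 bp, and Hist1h1e none, so the adult median rests on a different mix of genes. A core histone gene, Hist1h4h, also had a spermatogonial median far downstream, at 701 bp. Hist1h2bh and Hist1h3f, Hist1h3c and Hist1h2bb, and Hist1h3a and Hist1h4a share peaks across 700 to 1229 bp, so the strongest peak of one can lie at its partner. With the core window the count of called members was 13, the 10 above and Hist1h1b, Hist1h2bh and Hist1h3f. Hist1h3f, with a peak in all 16 libraries by the 1 kb window, had 6 spermatogonial and 0 adult libraries by the core window.

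**Figure D5:**
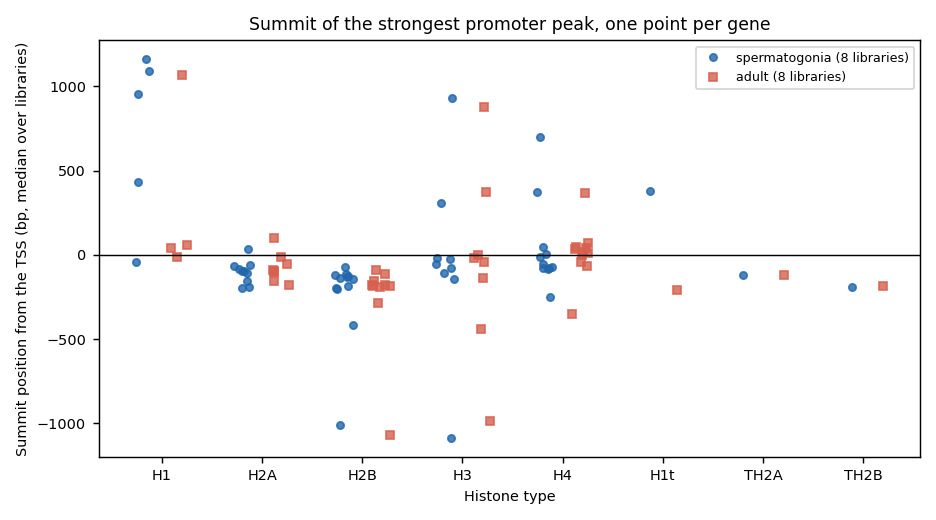
Summit position of the strongest promoter peak from the TSS (bp, downstream positive), as the median over the libraries with a peak, 1 point per gene and class, by histone type. Most H2A and H2B points cluster just upstream of 0, and 3 of the 5 H1 genes lie at 955.5 to 1160 bp in spermatogonia. Off the cluster are Hist1h2bh (-1008.5 bp in spermatogonia, -1069.5 bp in adult cells), Hist1h2be (-416 bp in spermatogonia) and Hist1h2ab (37 and 99 bp). H1t stands at 378 bp in spermatogonia. Its adult point, -209.5 bp, is a midpoint between summits at -543 to -502 bp and others at 83 to 428 bp.

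With all peaks, of the single steps only cKit against PS, into meiosis, had members with complete separation. At that step 8 members had a promoter peak in all 4 cKit and 0 of 4 PS libraries (1.31% of all genes did), namely Hist1h2af, Hist1h4f, Hist1h3e, Hist1h2ae, Hist1h2bg, Hist1h4d, Hist1h2be and Hist1h1e. None had the reverse, which 1.05% of all genes did. At a -log10 q or a fold of at least 5, Hist1h2af, Hist1h4f, Hist1h4d and Hist1h1e were no longer separated between cKit and PS, and with equal lists Hist1h2af and Hist1h4d were not. Between Thy1 and cKit, and between PS and RS, 0 members were separated in either direction, where 0.239% and 0% of all genes and 0.196% and 0.122% were. From PS to RS, 20 members (37.0%) had a peak in more RS libraries and 2 (3.7%) in fewer, against 12.6% and 15% of all genes, without complete separation. Examples of more RS libraries are Hist1h1c, Hist1h3c, Hist1h2bb and Hist1h4j, each in 1 PS and 4 RS libraries. With 4 against 4 libraries the smallest exact p is 0.0286, so no p is given for single steps.

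Separation was also described within each genotype and each replicate number. With 4 libraries against 4, all separated genes share p = 0.0286 by the exact test and pass or fail adjustment together. In wild type alone 10 members had 4 spermatogonial and 0 adult libraries (3.47% of all genes), in Scml2-KO alone 5 (1.16%), in replicate 1 alone 6 (3.52%) and in replicate 2 alone 9 (1.69%), and in each case 0 had the reverse. Hist1h2af, Hist1h2ae, Hist1h2bg, Hist1h2be and Hist1h1e were separated in all 4 subsets, which their 8 libraries against 0 fix in advance. Hist1h1b and Hist1h3b joined them in wild type alone, and Hist1h3i in replicate 2 alone.

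No Hist1h gene was called between the genotypes. Over all stages, with labels exchanged within stages, 811 genes could be tested by the exact conditional test, of which 0 (0%) passed adjustment and 14 (1.73%) had an unadjusted p of at most 0.05. Only Hist1h1t and Hist1h4n could be tested among the members, with 0 at that level. Of the 54 genes 34 had equal numbers of Scml2-KO and wild-type libraries, 10 more Scml2-KO and 10 more wild type (18.5% each, against 15.7% and 18.8% of all genes). Within stages, Hist1h1b, a linker histone gene, had a peak in both Scml2-KO and neither wild-type library in PS and again in RS. Such separation held for 0.659% of all genes in PS and 2.29% in RS. No other member was separated in any stage. In the same direction 0.0702% of all genes were separated in Thy1 and 0.112% in cKit. With wild type higher it was 0.781% in Thy1, 0.122% in cKit, 0.861% in PS and 0.398% in RS. Its fold was 6.24 and 5.98 in PS Scml2-KO and 14.4 and 4.76 in RS Scml2-KO, against 25.3, 22.4, 16.3, 8.74, 14.2, 13.9, 15.98 and 6.29 in the 8 spermatogonial libraries. With 2 against 2 libraries the smallest possible exact two-sided p is 0.333. The separation did not remain in either stage with a TSS window of 500 bp, as the Hist1h1b summits lay 1038 to 1110 bp from the TSS.

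The remaining members stood between these patterns. Among the tested genes Hist1h3i (8 spermatogonial and 3 adult libraries, adjusted p = 0.0545, Fisher's exact test) and Hist1h3b (7 and 2, 0.0720) just missed the threshold. Both were called with the replicate number as a block. Hist1h3h had 7 and 3, Hist1h4k 6 and 2, Hist1h4m 5 and 1 and Hist1h4n 5 and 2, also not called. Of the genes with too many libraries to be tested, Hist1h1b had 8 and 4, and Hist1h1c, Hist1h3c and Hist1h2bb had 8 and 5. Hist1h2ah, Hist1h2bk and Hist1h2bh had 8 and 6, Hist1h2bm, Hist1h2ak, Hist1h2bn and Hist1h1a 8 and 7, and Hist1h4j, Hist1h4i and Hist1h2ab 7 and 5. Hist1h4b had 7 and 7. In all, 30 members (55.6%) had a peak in more spermatogonial libraries and 3 (5.56%), the testis variants, in more adult libraries, against 27.0% and 16.1% of all genes.

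Hist1h2bq, Hist1h2ao, Hist1h2ap and Hist1h2br, 2 divergent H2A and H2B pairs in the first block, had no promoter peak in any library, as did 15% of all genes. The 300-base RefSeq windows of Hist1h2bq and Hist1h2br were identical in 300 bases. Stretches of 267 bases were shared by the windows of Hist1h2ao and Hist1h2br, 233 by those of Hist1h2bq and Hist1h2ap, 200 by those of Hist1h2ao and Hist1h2ap, and 285 by those of Hist1h4m and Hist1h4n. Of 1265 pairs of member windows these 5 shared a run as long as the 75-bp reads, and the next longest was 72 bases (Hist1h4j and Hist1h4k). How reads from such repeated stretches were mapped is not stated in the labels. Hist1h4m and Hist1h4n had peaks in some libraries, with folds of 5.30 to 11.2 and lengths of 96 to 290 bp. The part of repeated sequence in the missing peaks was not tested.

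Genes around the histone supply were open throughout. Of 30 genes for the histone locus body, histone mRNA processing and histone supply, among them Npat, which drives histone transcription, Slbp, which binds the histone mRNA stem-loop, and Hinfp, an H4 gene activator, 30 had a promoter peak in each spermatogonial library and 29 or 30 in each adult library. None could be called, since 0 had a peak in 5 to 11 libraries. Lsm10, a subunit of the histone mRNA processing particle, was the member missing from 1 adult library. Among 14 histone genes of the Hist2, Hist3 and Hist4 clusters, 9 to 14 had a peak in spermatogonial and 7 to 14 in adult libraries, and 0 of 5 tested were called. Of 15 histone variant genes elsewhere in the genome, 2 of 4 tested were called higher in adult cells: Hils1 (0 and 7 libraries, adjusted p = 0.00876, Fisher's exact test) and H1fnt (0 and 6, 0.0246), both spermatid linker histones. None was called higher in spermatogonia. Of 33 other genes lying within the cluster, 18 had no peak in any library, and 2 of 3 tested were called higher in spermatogonia, Btn2a2 (8 and 2, 0.0246) and C230035I16Rik (7 and 0, 0.00876).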

How the data were processed

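Peak lists of 16 ATAC-seq libraries were analysed, 2 for each of 4 stages and 2 genotypes. Per the submitters' processing notes, the authors used Bowtie 1.1.1, MACS2 2.1.0.20140616 and build mm10, with options not given. Per the file headers, each list held 1 library's peaks with a summit pileup (signal), a fold enrichment (ratio of pileup to local background) and -log10 p and q values, as deposited by the authors. Depth in reads is unknown, so a missing peak does not show closed chromatin.

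Of 1431525 lines, 576 mitochondrial lines were left out. Lines of 1 peak were joined, which left 1111092 peaks, and TSS came from the annotation in the lists (23663 positions). A gene had a promoter peak where any peak reached within 1 kb of its TSS. Spermatogonia and adult cells were compared by a two-sided Fisher's exact test, and genotypes by an exact test over 1296 exchanges of labels within stages. Both used Benjamini-Hochberg adjustment over all testable genes and a threshold of 0.05. On simulated data with 21380 genes, the first recovered 187 of 200 changed genes with 1 false call and the second 150 of 200 with 0. There, changed genes had a peak in nearly all libraries of one side and nearly none of the other. Differences in list length between libraries were left out of the simulation, so these rates check the code and do not carry over to the real lists. Python 3.11.15, pandas 2.3.3, numpy 2.4.6, SciPy 1.17.1 and matplotlib 3.10.9 were used. The members and lists were chosen with earlier results of these data known. By the rule for named genes, every Hist1h gene was accounted for, with values for the testis variants, the called or separated genes and the strongest and weakest gene of each type among those with a peak in every library. Of other lists, called genes were named. Alternatives covered the TSS window, peak strength, list length, overlap, summit position, subsets of libraries and a replicate block. The symbols Hist1h2aj and Hist1h2al, present in RefSeq, were not analysed here.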

Additional observations from a re-analysis of the deposited data

Results flagged for a closer look

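In each group of 4 to 10 libraries the highest and lowest values were compared with the rest, over 43 groups, and chance alone sets about 1 in 20 apart. Among the 8 spermatogonial libraries, cKit Scml2-KO replicate 2 had 36 Hist1h genes with a promoter peak and the others 45 to 50, a gap of 0.643 of the range. It also had the shortest peak list, with 17813 peaks. Among the 4 PS libraries, wild type replicate 1 had a median H4 fold ratio to the library median of 0.621 and the others 0.722 to 0.739, a gap of 0.857 of the range.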

How the results depend on the processing

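Every one of the 10 called members was called again with a 500 bp window, with peaks of -log10 q or fold of at least 5, with 100 bp overlap, with lists of equal length, with a core promoter window added after the data were seen, and without any single library. Hist1h1d was not called when the summit had to lie in the window, nor, with Hist1h4d, in wild type alone. With equal lists 21 members were called higher in spermatogonia and 2 higher in adult cells, and 2131 genes in all against 1301. Scml2-KO alone gave 0 members and 0 genes, replicate 2 alone 0 and 0, and replicate 1 alone 6 members, where 4 libraries against 4 limit the test. Without 1 library at a time, 1326 to 2410 genes were called, the highest without cKit Scml2-KO replicate 2, and 10 to 13 members.

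For cKit against PS, equal lists gave 13 members and 1109 genes, -log10 q of 5 gave 10 members, a fold of 5 gave 9 (4 of the 8 members remained in both), and leaving out 1 library gave 8 to 10 members and 542 to 885 genes (885 without cKit Scml2-KO replicate 2). Thy1 against cKit had 51 genes separated, 35 at a fold of 5, and 52 to 147 without 1 library (147 without Thy1 Scml2-KO replicate 2). PS against RS gave 1 member with a peak in all RS and no PS libraries and 105 genes at -log10 q of 5, 1 and 143 at a fold of 5, 2 and 324 with equal lists, and 0 to 3 members and 91 to 199 genes without 1 library. Genotype separation within stages gave 2 members in cKit with equal lists. In PS it gave 0 with a 500 bp window, equal lists or 100 bp overlap and 3 at -log10 q of 5, and in RS 0 with a 500 bp window or at either stricter threshold.

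The spermatogonial H1 ratio was 0.945 with a 500 bp window, 0.888 with equal lists and 0.890 for the nearest peak. Equal lists gave 1.22 for H2A, 1.22 for H2B and 0.935 for H3. The adult H4 ratio was 0.647 at either stricter threshold and 0.644 with equal lists, and the spermatogonial H1t ratio 0.769 at -log10 q of 5. The cause of these shifts was not tested. No called difference changed direction, but the spermatogonial H1 and H3 medians above moved from above to below the library median. In every group replicate 1 had the longer peak list, with 52379 to 164060 peaks against 17813 to 75038 for replicate 2. The replicate number thus went with list length. Over 28 pairs of groups, replicate numbers were shared with r from -0.0036 to 0.424 (median 0.128), highest between the cKit genotypes. With the replicate block, 12 members, the same 10 with Hist1h3i and Hist1h3b, and 2233 genes were called, and 0 by genotype.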
